A study of Homo sapiens with 30 samples.

Results

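SH-EP cells carrying T58A MYCN were compared with SH-EP cells carrying WT MYCN, both after 6 hours in DMSO, by RNA-Seq. The SH-EP line, derived from human NB, has a mesenchymal character and lacks MYCN expression of its own. Each derivative carried a retroviral MYCN transgene under an exogenous promoter. The comparison uses 6 of the 30 libraries of the series, the 3 of the single mutant T58A in DMSO and the 3 of WT in DMSO, chosen by the genotype and treatment on their labels. Further libraries cover the same lines under a drug and the same substitution on another background. They are T58A and WT cells after 6 hours in 1 μM CYC065, an inhibitor of CDK9 and CDK2, with 3 libraries each, and S62A and T58A S62A cells in DMSO, also with 3 each. Parental SH-EP cells in DMSO (3 libraries) are given as a reference level. Each genotype is represented by 1 derived line, so a difference between lines cannot be told apart from the substitution. The labels do not say whether the 3 libraries of a group came from separate cultures, so the p-values measure the spread between libraries, which may be technical.

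MYCN is a basic helix-loop-helix transcription factor that pairs with MAX and binds E-box sequences at promoters and enhancers. Its half-life is short. Phosphorylation of serine 62 primes the protein for phosphorylation of threonine 58 by GSK3, and once the serine has been dephosphorylated by PP2A, the ubiquitin ligase FBXW7 recognises the phosphorylated threonine and marks the protein for the proteasome. Replacing threonine 58 by alanine removes that recognition site, so T58A is known as a stabilised form of the protein. RNA-Seq measures transcripts only, and the comparison asks which transcripts differ between cells that carry the substituted and the unsubstituted factor.

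The 2 codons lie close together in the second of 3 exons of MYCN, in coding sequence. The stretch of codons 51 to 70 of the reference gene (GRCh37, chr2:16082337-16082396, plus strand) is shown because the 4 genotypes differ in it. Capitals mark codon 58, ACG for threonine, at 16082358 to 16082360, and codon 62, TCG for serine, at 16082370 to 16082372. The codons used in the transgenes are not given in the sources used here.
MYCN codons 51 to 70: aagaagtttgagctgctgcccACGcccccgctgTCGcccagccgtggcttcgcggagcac

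Values are FPKM as deposited, that is, fragments relative to transcript length and to the reads mapped in the library. Of the 26228 genes listed, 11575 averaged 1 FPKM or more across all 30 libraries and were tested on log2(FPKM + 0.1) with limma, and a Benjamini-Hochberg adjusted p under 0.05 is the threshold throughout. A log2 difference is T58A minus WT unless another contrast is named, with its standard error (SE), and understates the change of genes near 0.1 FPKM. Libraries are numbered 0, 1, and 2 as in the deposited table, and values are given in that order. Total reads are unknown. Relative depth, read from the smallest steps of the FPKM values, was 0.532, 1, and 0.94 in WT libraries 0, 1, and 2 and 0.637, 0.497, and 0.511 in those of T58A, where 1 is the deepest library of the series. Between 41.0% and 44.4% of listed genes were at 0 in each of the 6 libraries. Correlations of log2 levels across genes were 0.932 to 0.948 within WT, 0.925 to 0.936 within T58A, and 0.913 to 0.932 between the lines. The first principal component, with 28.4% of the variance, separated the lines. No library was identical to another.

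The MYCN transcript was lower in the T58A line than in the WT line. MYCN (chromosome 2, 16080672 to 16087129, GRCh37) stood at 13.3, 13.7, and 11.7 FPKM in the WT libraries and at 7.27, 9.84, and 8.44 FPKM in the T58A libraries. All 3 T58A libraries lay below all 3 WT libraries, as they did for 19.9% of tested genes. The level fell by 0.60 on the log2 scale (SE 0.17, limma adjusted p = 0.0102), a factor of 1.52. An exact permutation test of 3 libraries against 3 gave p = 0.1 (two-sided), the smallest it can give. The 3 parental SH-EP libraries were listed at 0. A level per gene does not show the substitution itself, so the labels could be checked for the presence of MYCN but not for its genotype. When libraries were scaled to the ERCC spike-ins, the difference was -0.30 (limma adjusted p = 0.377) and did not pass the threshold. Without T58A library 0 it was -0.49 and did not pass either.

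Of the 11 tested genes of the MYC network, 1 was higher and 3 were lower, against 10.7% higher and 13.0% lower among all genes tested. MYC, the paralog that SH-EP cells express from their own genome, stood at 1.13, 0.995, and 0.992 FPKM in WT and at 0.414, 0.468, and 0.457 FPKM in T58A. Its level fell by 1.06 (SE 0.17, limma adjusted p = 8.16e-05), and in parental SH-EP it was at a mean of 4.94 FPKM. MXI1, a partner of MAX that represses E-box genes, rose from 3.06, 3.4, and 3.72 FPKM to 6.49, 6.19, and 5.76 FPKM (log2 0.84, SE 0.17, limma adjusted p = 0.000762). MXD1, another MAX-binding repressor, moved the other way, from 1.43, 2.01, and 1.64 FPKM to 0.785, 1.18, and 0.733 FPKM (log2 -0.86, SE 0.16, limma adjusted p = 0.00038). MAX itself, the obligate partner, was at 27.4, 27.5, and 25.7 FPKM in WT and 33.2, 29.1, and 31.3 FPKM in T58A (log2 0.21, limma adjusted p = 0.0766). All 5 genes had libraries that did not overlap between the lines, as did 37.7% of all tested genes, but MAX did not pass the threshold. MXD1 no longer passed on the spike-in scale (log2 -0.60), which is explained below with the counts over all genes.

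**Figure D1:**
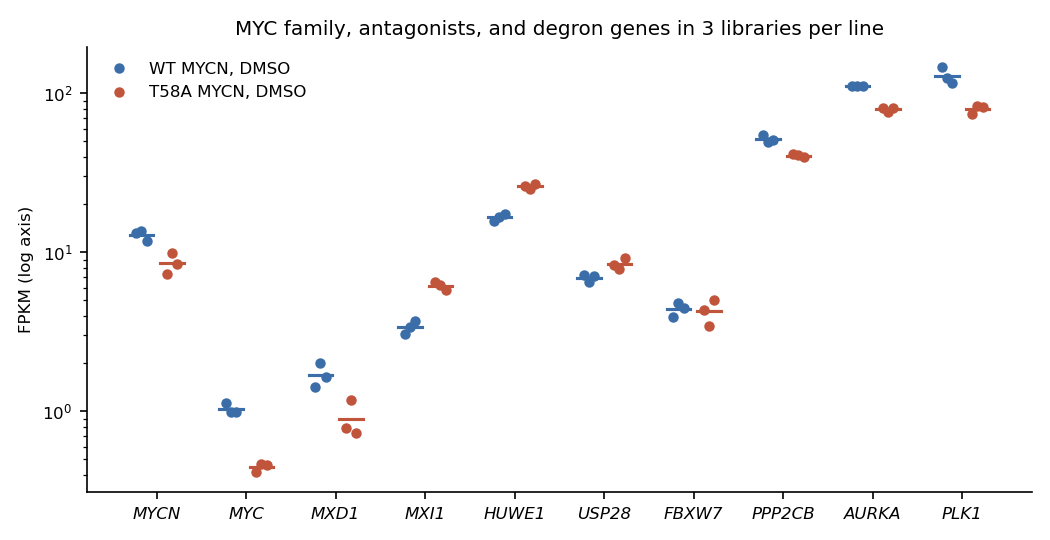
FPKM (log axis) of 10 genes of the MYC network and of MYC protein turnover, with 1 point per library, blue for WT and red for T58A MYCN in DMSO, and a bar at the mean of 3. MYCN, MYC, and MXD1 lie lower in T58A, MXI1 and HUWE1 lie higher, and the FBXW7 points of the lines overlap.

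The genes for the enzymes that act on the T58 and S62 sites were examined next. Among 34 tested members of this list (kinases, phosphatases, ubiquitin ligases, deubiquitinases, and cofactors), 4 were higher and 4 were lower, with a median log2 difference of -0.01 against -0.02 over all genes. The share past the threshold was that of all genes, 23.6%. FBXW7 and the GSK3 genes were not among them. FBXW7 was at 3.92, 4.8, and 4.46 FPKM in WT and 4.32, 3.45, and 5.01 FPKM in T58A (log2 -0.05, limma adjusted p = 0.816). GSK3A (log2 0.10) and GSK3B (log2 0.02), the kinases of threonine 58, did not pass either, and the libraries of both lines overlapped for each.

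Other regulators of MYC protein turnover did differ. HUWE1 (chromosome X), a ubiquitin ligase with MYC proteins among its substrates, stood at 15.7, 16.7, and 17.4 FPKM in WT and 26.1, 25.1, and 26.8 FPKM in T58A, a rise of 0.64 (SE 0.06, limma adjusted p = 1.75e-08). AURKA, the kinase that binds MYCN and shields it from FBXW7, fell from 112, 111, and 111 FPKM to 81.3, 76.3, and 80.9 FPKM (log2 -0.49, limma adjusted p = 4.59e-05). PLK1, a mitotic kinase that acts on FBXW7, fell from 146, 125, and 116 FPKM to 73.8, 82.7, and 82.3 FPKM (log2 -0.69, limma adjusted p = 4.04e-07). For all 3 genes, the ranges of the lines were apart by more than the spread within either. Both genes for catalytic subunits of PP2A were also lower. PPP2CA fell from 108, 108, and 107 FPKM to 98.2, 88.9, and 92.5 FPKM (log2 -0.21, limma adjusted p = 0.000403), and PPP2CB fell by 0.34. TRIM32 (log2 0.50), the deubiquitinase gene USP28 (log2 0.28), and MAPK3 (log2 0.38), which encodes the kinase ERK1, were higher, but these 3 calls were weak. TRIM32 lost its call without any of WT libraries 0, 1, or 2 or T58A libraries 0 or 1, MAPK3 without WT library 1 or 2 or T58A library 0 or 2, and USP28 without WT library 1 or T58A library 2. On the spike-in scale, the differences of AURKA (log2 -0.18), PLK1 (log2 -0.39), PPP2CB (log2 -0.04), PPP2CA (log2 0.09, a change of sign), MAPK3 (log2 0.69), and USP28 (log2 0.58) no longer passed.

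Across the transcriptome, 2737 genes (23.6%) passed the threshold, 1233 higher (10.7%) and 1504 lower (13.0%) in T58A. Most differences were small. The median size among called genes was 0.38 on the log2 scale. Of the called genes, 297 were higher and 247 lower by at least 1.5-fold, 82 and 77 by at least 2-fold, and 21 and 19 by at least 4-fold. Among called genes, 377 had means under 5 FPKM in both lines, and for 142 the libraries of the lines overlapped. The balance of higher and lower calls depended on the scale. The spike-ins were added by cell number, so scaling to them gives RNA per cell, whereas deposited FPKM give a share of each library. On the spike-in scale, the median of all tested genes moved from -0.02 to 0.28, and 994 genes passed, 941 higher and 53 lower. The offsets of the 6 libraries on that scale were 0.72, 0.17, and 0.35 in WT and 0.94, 0.26, and 0.95 in T58A, so library 1 of T58A lay within the range of WT. Directions below are on the deposited scale, relative to the bulk of transcripts. Calls of T58A against WT in DMSO that ended on the spike-in scale are named.

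**Figure D2:**
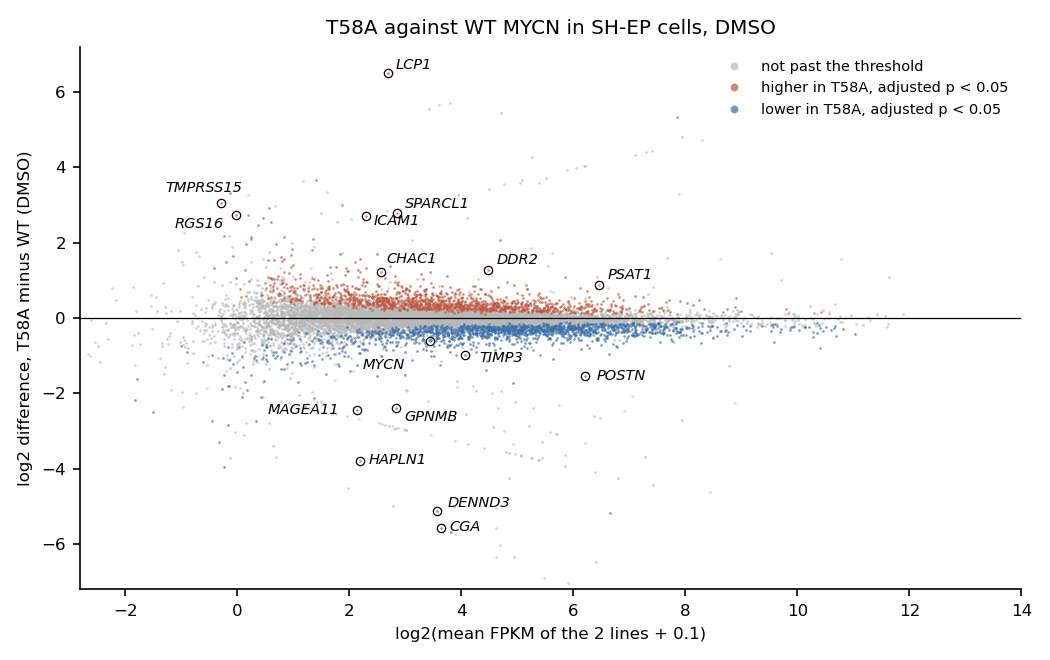
Each point is 1 of the tested genes, with the log2 of its mean FPKM over the 6 libraries plus 0.1 on the x axis and its log2 difference, T58A minus WT in DMSO, on the y axis. Genes past the threshold are red (higher in T58A, 1233) or blue (lower, 1504), circles mark named genes, and 5 genes beyond 7.2 in size, 2 of them past the threshold, lie outside the axis. Large differences are few in both directions, from LCP1 at 6.51 to CGA at -5.57 among the genes named.

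Among genes past the threshold whose libraries did not overlap, and leaving out genes for small RNAs, the largest rise was that of LCP1 (chromosome 13, 46700055 to 46786006), the gene of the actin-bundling protein L-plastin, best known from leukocytes. It was close to 0 in WT, at 0.0378, 0.06, and 0.0214 FPKM, and stood at 13.3, 12.7, and 11.8 FPKM in T58A (log2 6.51, SE 0.24, limma adjusted p = 2.1e-15). The other lines also differed widely, with means of 1.68 FPKM in SH-EP, 0.908 in S62A, and 80.0 in T58A S62A. Markers of blood and endothelial cells did not move with it. Of 15 such markers, 6 were at 0 in all 3 WT libraries and 7 in all 3 T58A libraries, and their summed levels were 6.51 to 7.58 FPKM in WT and 3.35 to 5.12 FPKM in T58A.

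Further large rises started from low levels in WT. CAPN12, a calpain gene, rose from 0.185, 0.343, and 0.288 FPKM to 3.33, 7.21, and 3.86 FPKM (log2 3.66, limma adjusted p = 0.00384). ICAM1 (chromosome 19, 10381769 to 10397291), an adhesion molecule for leukocytes, rose from 1.47, 0.943, and 1.18 FPKM to 9.38, 7.97, and 7.79 FPKM (log2 2.72, SE 0.29, limma adjusted p = 3.12e-07). SPARCL1, a secreted matrix-associated protein, rose from 1.15, 1.99, and 2.17 FPKM to 12.5, 13.2, and 11.4 FPKM (log2 2.78, limma adjusted p = 1.41e-08). TMPRSS15, which encodes the protease enteropeptidase, was at most at 0.153 FPKM in WT and at 1.02 to 1.66 FPKM in T58A (log2 3.05). The fold differences of ICAM1, SPARCL1, and TMPRSS15 on the log2(FPKM + 0.1) scale were 6.6, 6.87, and 8.27. RGS16, a regulator of G protein signalling (log2 2.74), MAGEA1, a cancer-testis antigen (log2 2.47), TBX3, a T-box repressor (log2 2.17), HLA-B, a classical MHC class I gene (log2 2.15), and CDH19, a cadherin gene (log2 1.98), also rose. All of them were under 1 FPKM in every WT library and above 1 FPKM in every T58A library.

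Under the same limits, the largest fall was that of CGA (chromosome 6, 87795216 to 87804824), the alpha subunit shared by the glycoprotein hormones. It stood at 23.1, 25.3, and 23.9 FPKM in WT and at 0, 1.06, and 1.03 FPKM in T58A (log2 -5.57, SE 0.63, limma adjusted p = 6.5e-07). In the other lines it was high without the T58A substitution, at means of 56.7 FPKM in SH-EP and 120.0 in S62A, and was listed at 0 in T58A S62A. DENND3 (chromosome 8, 142127377 to 142205907), an exchange factor for a RAB GTPase, fell from 25.4, 22.3, and 21 FPKM to 0.598, 0.523, and 0.538 FPKM (log2 -5.13, SE 0.27, limma adjusted p = 3.05e-12). Here WT was the line that stood apart, since SH-EP (0.771 FPKM), S62A (0.601), and T58A S62A (0.816) were as low as T58A. HAPLN1, the link protein that ties hyaluronan to proteoglycans, fell from 7.45, 9.01, and 8.83 FPKM to 0.525, 0.387, and 0.662 FPKM (log2 -3.79, limma adjusted p = 2.13e-10). Its means were 0.811 FPKM in SH-EP, 2.93 in S62A, and 0.88 in T58A S62A.

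Among the other large falls, GPNMB, a transmembrane glycoprotein, fell from 12.6, 10.8, and 12.1 FPKM to 2.79, 1.94, and 1.9 FPKM (log2 -2.39, limma adjusted p = 2.41e-10). MAGEA11, a second cancer-testis gene, fell (log2 -2.44) whereas MAGEA1 had risen. ISLR (log2 -2.13), the chitinase-like protein CHI3L1 (log2 -2.09), galectin-9 (LGALS9, log2 -1.91), and the WNT antagonist FRZB (log2 -1.89) fell as well. Each gene named from LCP1 to FRZB also passed on the spike-in scale, in the same direction.

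Gene lists were then counted. With 10.7% of all tested genes higher and 13.0% lower, lists with shares near those values are given by their counts or left out. Among lists with at least 20 tested members, the largest share of rises was in targets of ATF4 with serine synthesis, 68% of tested members, and the largest shares of falls were in matrix proteases and their inhibitors, 50%, and in ribosome biogenesis, 48.5%.

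**Figure D3:**
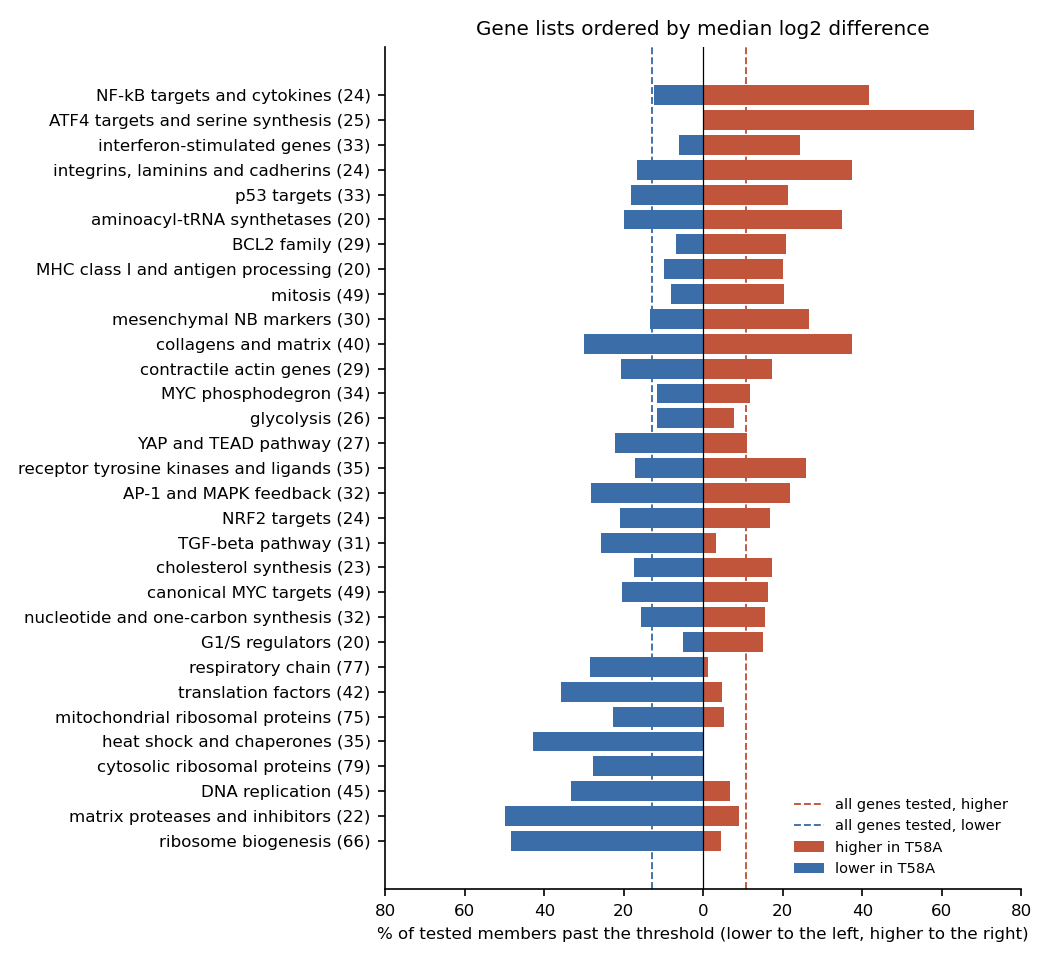
Percent of the tested members of each gene list (number in brackets) that were past the threshold, lower in T58A to the left (blue) and higher to the right (red), in order of the list's median log2 difference. Dashed lines mark the shares among all tested genes, 13.0% lower and 10.7% higher. The NF-kB, ATF4, and interferon-stimulated lists stand at the top. Ribosome biogenesis, matrix proteases and inhibitors, cytosolic ribosomal proteins, DNA replication, and chaperones stand at the bottom.

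Genes of amino acid supply rose. ATF4 is a transcription factor made when amino acids run short or the endoplasmic reticulum is stressed, and it drives genes for amino acid synthesis and uptake. Of 25 tested members, 17 were higher and 0 lower, with a median of 0.33. PSAT1, an enzyme of serine synthesis, stood at 62, 61.5, and 62.3 FPKM in WT and 119, 117, and 106 FPKM in T58A (log2 0.88, SE 0.06, limma adjusted p = 4.22e-10). CHAC1, which degrades glutathione, rose from 3, 4.35, and 3.11 FPKM to 7.27, 9.06, and 8.12 FPKM (log2 1.22, SE 0.21, limma adjusted p = 0.000137). In both genes, the lowest T58A library was above the highest WT library. ASNS, asparagine synthetase, rose from 28.2, 26.9, and 24.4 FPKM to 47.5, 46.1, and 42.5 FPKM (log2 0.77, limma adjusted p = 1.28e-08). The stress sensor gene SESN2 (log2 0.84), the glutamine transporter gene SLC1A5 (log2 0.57), and CEBPG, a partner of ATF4 (log2 0.47), rose too. The ATF4 transcript was at 157, 122, and 131 FPKM in WT and 175, 171, and 165 FPKM in T58A (log2 0.33, limma adjusted p = 0.0011). After spike-in scaling, 11 of the 25 passed, all of them higher.

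Aminoacyl-tRNA synthetases, which charge tRNAs with their amino acids and of which several are ATF4 targets, did not move as a block, with 7 higher and 4 lower of 20 (median 0.08). GARS, the glycine enzyme, rose from 99, 97.2, and 103 FPKM to 140, 143, and 131 FPKM (log2 0.47, limma adjusted p = 6.55e-09), and CARS, the cysteine enzyme, by 0.48. The arginine enzyme gene RARS fell from 107, 112, and 116 FPKM to 70.5, 69.8, and 64 FPKM (log2 -0.71, limma adjusted p = 5.64e-09). That fall no longer passed on the spike-in scale, at -0.41.

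Promoters of these genes were read from RefSeq (GRCh38.p14, 250 bases before to 50 after the start, 300 bases in all) for the letters TGATGNAA on either strand, in which N is any base, the composite element bound by ATF4 with a C/EBP partner. Of the 22 tested list members with a promoter sequence, 8 (36.4%) held it, against 3.62% of all 35116 promoters and 2.61% of tested genes. The members had been listed as ATF4 targets, so the share describes the list and not the lines. It was also found in 5.12% of the promoters of all genes higher in T58A and 2.27% of those lower. Stretches around the match are shown for 3 of the genes that rose, picked as examples. Capitals mark the match, which lies on the other strand in CHAC1, and the element begins 209, 42, and 97 bases before the start in CHAC1, CEBPG, and SLC1A5.
CHAC1, chr15:40953221-40953314, plus strand: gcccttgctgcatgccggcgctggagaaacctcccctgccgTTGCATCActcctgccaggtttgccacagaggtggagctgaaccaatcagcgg
CEBPG, chr19:33374026-33374112, plus strand: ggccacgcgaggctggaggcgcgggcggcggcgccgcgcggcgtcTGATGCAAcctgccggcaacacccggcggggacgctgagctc
SLC1A5, chr19:46784859-46784956, minus strand: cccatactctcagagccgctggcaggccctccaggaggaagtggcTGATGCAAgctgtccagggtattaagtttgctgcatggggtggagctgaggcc

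NF-kB is a family of dimeric transcription factors held in the cytoplasm by inhibitors such as IκBα and released by inflammatory signals. Of 24 tested targets and cytokines, 10 were higher and 3 lower in T58A (median 0.44). ICAM1 had the largest rise of the list. BIRC3, an inhibitor of apoptosis, rose from 0.585, 0.711, and 0.628 FPKM to 2.52, 1.94, and 1.79 FPKM (log2 1.55, SE 0.21, limma adjusted p = 7.79e-06). The chemokine gene CXCL8 rose from 5.51, 6.45, and 5.77 FPKM to 8.8, 9.43, and 12.2 FPKM (log2 0.76, limma adjusted p = 0.000519). Genes of the pathway itself rose by less. NFKBIA, which encodes IκBα, went from 36.5, 35.8, and 36.2 FPKM to 51, 47.4, and 47.4 FPKM (log2 0.42, limma adjusted p = 5.65e-06), and the subunit genes NFKB2 (log2 0.55) and NFKB1 (log2 0.30) were higher. The members that fell were few. They included CSF1, the macrophage growth factor (log2 -0.33), and PTGS2, the inducible cyclooxygenase (log2 -0.77), whose call was lost without WT library 1 or 2 or T58A library 1. Scaled to the spike-ins, 8 members were higher and 0 lower.

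Antigen presentation and interferon genes had fewer calls. Of 20 tested members of MHC class I and antigen processing, 4 were higher and 2 lower, with HLA-B and the immunoproteasome subunit gene PSMB9 (log2 0.85) highest. Of 33 tested interferon-stimulated genes, 8 were higher and 2 lower (median 0.17). PARP14 rose from 2.67, 3.15, and 3.41 FPKM to 5.89, 5.1, and 5.3 FPKM (log2 0.80, limma adjusted p = 2.68e-06). The count of 8 rested on single libraries, since it was 4 without WT library 1, 5 without WT library 0, and 4 without T58A library 0.

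NF-kB binding letters, GGAANTTCC or a longer form with GGGA, any base, and then TTTCC, on either strand, which can overlap each other, were present in 1.38% of all RefSeq promoters. Among the 24 tested list members, 19 had a promoter sequence, 79.2%, and no share is given for lists in which fewer than 80% of members have one. Stretches are shown for 3 genes that rose and whose products belong to or report on the pathway. Capitals mark the match, which begins 81, 21, and 186 bases before the start.
NFKBIA, chr14:35404776-35404875, minus strand: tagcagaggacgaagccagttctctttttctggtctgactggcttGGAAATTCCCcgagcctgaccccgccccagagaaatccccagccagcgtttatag
NFKB2, chr10:102395639-102395704, plus strand: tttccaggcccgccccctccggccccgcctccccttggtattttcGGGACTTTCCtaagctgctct
ICAM1, chr19:10270889-10270987, plus strand: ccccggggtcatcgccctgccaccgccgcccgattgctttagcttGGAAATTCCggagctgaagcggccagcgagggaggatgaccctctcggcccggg

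Genes of ribosome production, the best known targets of MYC proteins, were lower in T58A as a share of the library. Of 66 tested genes of ribosome biogenesis, 32 were lower and 3 higher (median -0.20). NOP58, a core protein of box C/D snoRNPs, stood at 158, 157, and 160 FPKM in WT and 116, 113, and 111 FPKM in T58A (log2 -0.48, SE 0.04, limma adjusted p = 5.64e-09). WDR46 (log2 -0.55), BRIX1 (log2 -0.53), and FTSJ3 (log2 -0.52) had the largest falls of the list. Nucleolin (NCL) fell by 0.20, from 721, 695, and 709 FPKM to 605, 638, and 605 FPKM (limma adjusted p = 0.00158). UTP20, a component of the small subunit processome, was higher (log2 0.37). On the spike-in scale, the median of the list was 0.10 with 1 member higher and 0 lower, and the difference of NCL changed sign to 0.10, so the falls hold relative to other transcripts, and no fall per cell passed the threshold.

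Ribosomal proteins and translation factors followed the same pattern with less support. Of 79 cytosolic ribosomal protein genes, 22 were lower and 0 higher (median -0.14). RPS21 fell from 1986, 1666, and 1515 FPKM to 914, 1067, and 996 FPKM (log2 -0.79, limma adjusted p = 1.75e-08), and RPS25 (log2 -0.50) and RPS18 (log2 -0.43) followed. WT library 0 was the highest of its group for each of these 3 genes, and without it 11 ribosomal protein genes passed. With only the groups compared in the model, 3 passed. Of 75 mitochondrial ribosomal protein genes, 17 were lower and 4 higher, and 11 were lower without WT library 0. Of 77 respiratory chain genes, 22 were lower and 1 higher, and of 42 translation factors, 15 were lower and 2 higher. EIF5, a factor of start codon recognition, fell from 97.8, 103, and 104 FPKM to 71.1, 69.9, and 68.9 FPKM (log2 -0.54, limma adjusted p = 9.93e-07), whereas PDCD4, an inhibitor of the helicase eIF4A, rose from 4.53, 5.14, and 5.39 FPKM to 8.97, 8.55, and 8.66 FPKM (log2 0.79, limma adjusted p = 0.000525). In these 4 lists, 0 members were lower on the spike-in scale.

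Heat shock proteins and other chaperones, which fold newly made proteins, had calls on 1 side. Of 35 tested members, 15 were lower and 0 higher (median -0.11). HSP90AA1, the inducible cytosolic HSP90, stood at 1930, 1900, and 1928 FPKM in WT and 1386, 1431, and 1335 FPKM in T58A (log2 -0.47, SE 0.05, limma adjusted p = 6.45e-07). CCT2, a subunit of the cytosolic chaperonin, fell by 0.45. Per cell, by the spike-ins, 0 members were lower.

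The canonical MYC targets, a list of 49 tested genes from several of these functions, split into 8 higher and 10 lower (median -0.05). When the fit held only the groups compared, 1 of them was lower. A further set was taken from contrasts of other lines, though all groups share an estimate of the spread. Genes with a small spread pass more easily in every contrast, so the shares called below are not independent of how the set was chosen. It held the 2672 genes that were higher than in SH-EP in both S62A and T58A S62A cells. Of these, 371 were higher and 418 lower in T58A than in WT, with a median of -0.01, and 29.5% were past the threshold against 23.6% of all genes. Of the 1973 genes lower than in SH-EP in both lines, 307 were higher and 348 lower (median -0.01), and 33.2% were past the threshold. The median of all genes was -0.02. These sets turn with the scale, since on the spike-in scale 36 genes were higher and 8039 lower than in SH-EP in both lines.

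Cell cycle genes were counted by phase. Of 45 tested DNA replication genes, 15 were lower and 3 higher (median -0.14). PCNA, the sliding clamp, fell from 269, 271, and 258 FPKM to 222, 226, and 208 FPKM (log2 -0.28, limma adjusted p = 0.000201), and CLSPN (log2 -0.67), which encodes the checkpoint adaptor claspin, and GINS4 (log2 -0.56), a subunit of the replicative helicase, had larger falls. Of 49 mitosis genes, 10 were higher and 4 lower (median 0.01). Cyclin A2 (CCNA2) rose from 57.5, 64.5, and 65.5 FPKM to 95.3, 90.7, and 93.1 FPKM (log2 0.57, limma adjusted p = 1.54e-06), CENPF by 0.46, and MKI67, the proliferation marker Ki-67, by 0.42, in contrast to AURKA and PLK1. The count of 10 was 6 without T58A library 0 or T58A library 1 and 5 when the model held only the groups compared. Of 20 tested regulators of G1 and S entry, 3 were higher and 1 lower. CDK6 rose from 23.3, 25.6, and 25.9 FPKM to 47.6, 43.5, and 46.6 FPKM (log2 0.88, SE 0.07, limma adjusted p = 2.83e-09). The inhibitor gene CDKN1A rose by 0.30. After spike-in scaling, 0 replication genes were lower, PCNA was at 0.02, and 8 mitosis genes were higher.

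Genes of matrix remodelling differed between the lines. Of 22 tested matrix proteases and inhibitors, 11 were lower and 2 higher (median -0.20). TIMP3, an inhibitor of metalloproteinases, fell from 23.1, 21.5, and 21.8 FPKM to 10.9, 11.3, and 11.5 FPKM (log2 -0.98, SE 0.05, limma adjusted p = 3.95e-13). MMP14, a membrane-bound collagenase, fell from 49.4, 45.2, and 41.6 FPKM to 25.5, 24.7, and 28.7 FPKM (log2 -0.79, limma adjusted p = 4.07e-09). Proteases and their inhibitors thus fell side by side. The plasminogen activator gene PLAT (log2 -0.59) and TIMP1 (log2 -0.60) fell as well. MMP16 rose from 1.21, 1.83, and 2.12 FPKM to 3.16, 3.88, and 3.47 FPKM (log2 1.01, limma adjusted p = 0.000283). TIMP3 was the only member of the list still lower on the spike-in scale, at -0.68.

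Collagens and other matrix proteins had calls in both directions, with 15 higher and 12 lower of 40 (median 0.00), though the 12 became 4 when the model held only the groups compared. Periostin (POSTN, chromosome 13) fell from 92.4, 118, and 122 FPKM to 40.6, 38, and 34 FPKM (log2 -1.55, SE 0.08, limma adjusted p = 3.05e-12). Fibronectin (FN1) rose from 32.5, 37.4, and 37.5 FPKM to 55, 48.9, and 52.3 FPKM (log2 0.54, limma adjusted p = 2.1e-07). COL8A1 (log2 0.78), THBS2 (log2 0.73), and COL12A1 (log2 0.68) rose as well. On the spike-in scale, 13 members were higher and POSTN alone was lower, at -1.25. Among 31 tested genes of the TGF-beta pathway, 8 were lower and 1 higher, and the rise was that of the ligand gene TGFB3, from 1.83, 1.87, and 1.67 FPKM to 4.37, 3.86, and 4.07 FPKM (log2 1.15, limma adjusted p = 0.000441). None of the 8 was lower on the spike-in scale.

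NB cells can take a mesenchymal or an adrenergic state, each held by its own transcription factors. Both lines had the mesenchymal markers of SH-EP, with 30 of 33 above 1 FPKM and summed levels of 2500 to 2796 FPKM in WT and 2358 to 2384 FPKM in T58A. Adrenergic markers were present in part. Of 35, 15 were above 1 FPKM in WT and 14 in T58A. In all 3 libraries, 12 were at 0 in WT and 16 in T58A, PHOX2A and HAND1 among both. Summed levels of the 35 were 232 to 261 FPKM in WT and 282 to 304 FPKM in T58A. Of 30 tested mesenchymal markers, 8 were higher and 4 lower (median 0.01). PRRX1, a mesenchymal transcription factor, rose from 45.5, 52.1, and 54.6 FPKM to 95.3, 83.9, and 87.5 FPKM (log2 0.81, SE 0.07, limma adjusted p = 1.55e-08), and in SH-EP it was at a mean of 111 FPKM. SNAI2 was at 11.9, 11.6, and 12.7 FPKM in WT and 11.7, 11.8, and 10.7 FPKM in T58A (log2 -0.08, limma adjusted p = 0.714), with overlapping libraries. VIM (log2 -0.26), CD44 (log2 -0.20), and FOSL1 (log2 -0.44) were lower, but on the spike-in scale VIM was at 0.05, CD44 at 0.11, and FOSL1 no longer passed.

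Of the 14 adrenergic markers that could be tested, 4 were higher and 2 lower. HAND2 rose from 70, 65.6, and 60 FPKM to 80, 89.3, and 84.1 FPKM (log2 0.37, limma adjusted p = 0.000729), and MAB21L2 by 0.86. GATA3 fell from 8.88, 7.46, and 6.95 FPKM to 4.37, 2.82, and 4.38 FPKM (log2 -1.01, SE 0.16, limma adjusted p = 4.46e-05), a call that ended on the spike-in scale at -0.72. HAND2 and GATA3, both transcription factors of the adrenergic state, thus moved in opposite directions. Among markers of other cell types, 9 were for Schwann cells and glia. Of these, 4 were at 0 in all 3 WT libraries and 5 in all 3 T58A libraries, SOX10 among both. Of the 2 tested, 1 was higher, CDH19 (log2 1.98). Summed levels of the 9 were 1.64 to 2.8 FPKM in WT and 2.28 to 3.54 FPKM in T58A. Of 14 epithelial markers, 4 were above 1 FPKM in each line, with summed levels of 487 to 632 FPKM in WT and 399 to 438 FPKM in T58A, while CDH1, KRT5, KRT14, CLDN3, and GRHL2 were at 0. Most of that sum came from the keratin genes KRT8 and KRT18, which were lower in T58A. KRT8 fell from 323, 267, and 249 FPKM to 195, 219, and 203 FPKM (log2 -0.44, limma adjusted p = 0.000116), and KRT18 fell by 0.37. Neither passed on the spike-in scale or when the model held only the groups compared.

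Growth factors and receptor tyrosine kinases also shifted, with 9 higher and 6 lower of 35. DDR2, a collagen receptor, rose from 10, 14.6, and 14.3 FPKM to 32.1, 29.5, and 32.2 FPKM (log2 1.28, SE 0.11, limma adjusted p = 1.6e-08). VEGFA, the angiogenic factor, rose from 6.9, 8.22, and 7.54 FPKM to 12.8, 12.3, and 12.2 FPKM (log2 0.71, limma adjusted p = 0.00015). For both genes, every T58A library was above every WT library. HBEGF fell from 13.2, 13.7, and 12.7 FPKM to 7.27, 7.04, and 7.4 FPKM (log2 -0.86, limma adjusted p = 4.03e-07). TGFA, like HBEGF a ligand of the EGF receptor, fell by 0.87, and that call ended on the spike-in scale at -0.58. MCL1, a survival gene with a short-lived transcript, was at 96.4, 106, and 107 FPKM in WT and 109, 101, and 102 FPKM in T58A (log2 0.02, limma adjusted p = 0.881). CDK9, a target of CYC065, was at -0.18 (limma adjusted p = 0.152).

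The same 2 lines after 6 hours in 1 μM CYC065 gave 6 libraries outside the DMSO contrast, though the spread was estimated over all groups together. Under CYC065, 3941 genes (34.0%) differed between T58A and WT on the deposited scale, 1980 higher and 1961 lower. With spike-in scaling 9060 passed, 9001 higher and 59 lower, so the directions given for CYC065 are those of the deposited scale. Of the 2737 genes called in DMSO, 1559 (57%) were past the threshold in the same direction, 697 higher and 862 lower, which is 39.6% of the CYC065 calls, and 44 were past it in the opposite direction. Of the 159 genes called with at least a 2-fold difference in DMSO, 146 had the same sign in CYC065 and 110 passed. LCP1 (log2 7.05), ICAM1 (log2 2.14), DENND3 (log2 -5.17), CGA (log2 -4.83), TIMP3 (log2 -1.05), POSTN (log2 -1.73), and MYCN (log2 -0.56) passed in CYC065 in the same direction as in DMSO, and for none of them did the difference between treatments pass the threshold.

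The lines differed by another amount under CYC065 for 602 genes (5.20%), 310 (2.68%) with a higher and 292 (2.52%) with a lower difference than in DMSO. The count depended on single libraries. It was 189 without WT library 0 in DMSO, 1090 without WT library 2 in DMSO, and 291 to 393 without 1 of 6 others. With spike-in scaling 5 genes passed, all higher, and 69 passed when the model held only the groups compared. Amino acid supply genes were among them. Of the 25 tested ATF4 targets, 6 were higher and 9 lower in T58A under CYC065 (median 0.00), where 17.1% of all genes were higher and 16.9% lower, against 17 and 0 in DMSO. ASNS changed from 0.77 in DMSO to -0.45 in CYC065 (difference -1.22, limma adjusted p = 4.97e-08), PSAT1 from 0.88 to 0.12 (difference -0.76, limma adjusted p = 2.8e-05), and CHAC1 from 1.22 to -0.64 (difference -1.86, limma adjusted p = 0.00188). VEGFA also turned, from 0.71 to -0.42 (limma adjusted p = 0.00138). In contrast, NF-kB targets were 10 higher and 2 lower in CYC065 (median 0.39). Matrix proteases and inhibitors were 1 higher and 13 lower (median -0.35). Several lists that leaned lower in DMSO did not do so here. Cytosolic ribosomal protein genes were 15 higher and 6 lower, mitochondrial ones 22 and 9, and respiratory chain genes 24 and 10. DNA replication genes were 9 higher and 5 lower. Canonical MYC targets, split in DMSO, were 17 higher and 3 lower. Ribosome biogenesis (13 higher, 17 lower), translation factors (3 and 9), and chaperones (9 and 13) still leaned lower. These list changes were not tested.

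The T58A substitution on the S62A background, T58A S62A against S62A in DMSO, was the second comparison with libraries of its own, 3 against 3. The spread was again estimated over all groups together. On that background, 3550 genes (30.7%) passed on the deposited scale, 1778 higher and 1772 lower. With spike-in scaling 10502 passed, 10452 higher and 50 lower, so the directions given for this background are those of the deposited scale. Of the 2737 genes called between T58A and WT, 1053 (38.5%) passed in the same direction, 472 higher and 581 lower, which is 29.7% of the calls on the S62A background, and 266 passed in the opposite direction. Among the 159 genes called with at least a 2-fold difference against WT, 127 had the same sign on the S62A background. Of these 159, 75 passed there in the same direction. Both backgrounds and CYC065 shared 783 genes with 1 direction, 342 higher and 441 lower. MYCN itself was at a mean of 5.72 FPKM in S62A and 13.5 in T58A S62A, so the double mutant had the higher level there (log2 1.19), and the 2 differences were unlike (1.79, limma adjusted p = 8.72e-06). The direction of the MYCN transcript was thus opposite on the 2 backgrounds, and the named genes are read beside it. A test of the backgrounds against each other, chosen after seeing the data, passed for 2228 genes (19.2%), 10.4% with a higher and 8.89% with a lower difference on the S62A background.

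Several leading genes moved alike on both backgrounds, though some genes were named because their direction was shared. LCP1 (log2 6.37), TMPRSS15 (log2 4.23), ICAM1 (log2 2.57), MAGEA1 (log2 2.36), SPARCL1 (log2 2.03), and RGS16 (log2 1.69) were higher in T58A S62A than in S62A, and POSTN (log2 -1.49), MAGEA11 (log2 -2.44), FRZB (log2 -2.11), and MYC (log2 -1.47) were lower. None of these 10 genes differed between the backgrounds past the threshold. Other genes passed against WT alone. DENND3 was at 0.35 on the S62A background, GPNMB at -0.13, HUWE1 at -0.02, PLK1 at 0.01, PSAT1 at 0.09, and CDK6 at 0.07, none past the threshold there, and each differed between the backgrounds. LGALS9 (log2 1.92), CHI3L1 (log2 1.22), FN1 (log2 -0.35), PRRX1 (log2 -0.58), CXCL8 (log2 -0.45), and MMP16 (log2 -0.64) passed in the opposite direction. These readings depend on the scale, since with spike-in scaling 50 genes were lower and 10452 higher on the S62A background.

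List counts on that background were taken as well, on the deposited scale, and their difference from the WT background was not tested. On the S62A background, 15.4% of all tested genes were higher and 15.3% lower. Of 25 ATF4 targets, 5 were higher and 4 lower (20% and 16%), shares near those of all genes. NF-kB targets and cytokines had 7 higher and 3 lower of 24 (29.2% and 12.5%). Their median was 0.06, against 0.44 between T58A and WT in DMSO. Of 66 ribosome biogenesis genes, 16 were higher and 7 lower (24.2% and 10.6%), and of 79 cytosolic ribosomal protein genes, 22 were higher and 3 lower (27.8% and 3.8%). Of 22 matrix proteases and inhibitors, 3 were higher and 13 lower (median -0.46), and of 33 interferon-stimulated genes, 15 were higher and 2 lower (median 0.40). The plot of 24 genes in the comparisons shows the contrast between genes that kept their difference and genes that did not.

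**Figure D4:**
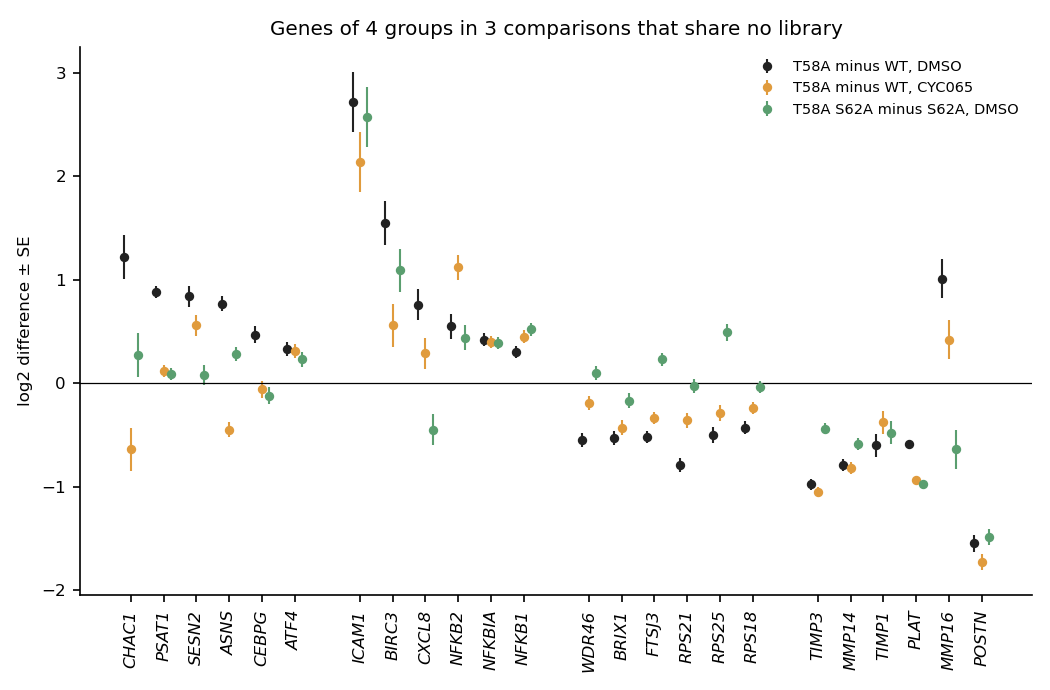
Log2 difference with its SE for 24 genes of 4 groups (amino acid supply, NF-kB, ribosome, matrix) in T58A minus WT in DMSO (black), T58A minus WT in CYC065 (orange), and T58A S62A minus S62A in DMSO (green), each difference from 3 libraries against 3 that enter no other difference shown. The SE rests on a spread estimated over all groups. ICAM1, NFKBIA, NFKB1, MMP14, and POSTN keep their side of 0 in all 3, whereas ASNS, CHAC1, CXCL8, RPS25, FTSJ3, and MMP16 lie on both sides.

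Differences were also read along the genome. Positions (GRCh37) were known for 97.8% of tested genes, and the median difference of whole chromosomes ran from -0.10 on chromosome 19 to 0.10 on chromosome 18. Over runs of 25 neighbouring tested genes, the lowest median was -0.46, on the long arm of chromosome 20 from 52824626 to 60883918, where 20 genes were lower and 0 higher. The wider stretch from 47897220 to 62936173 held 75 tested genes, of which 36 were lower and 3 higher (median -0.29), AURKA and RPS21 among the lower ones. Against SH-EP, the stretch was at a median of 0.37 in WT, with 39 genes higher and 5 lower, and at 0.07 in T58A. Many genes differed from SH-EP, since 3658 of all 11575 were higher and 2612 lower in WT. The medians of all genes against SH-EP were 0.07 in WT and 0.05 in T58A. The stretch was also lower in T58A under CYC065 (median -0.16) and in T58A S62A against S62A (median -0.38). Its median on the spike-in scale was 0.00, where that of all genes was 0.28.

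Other stretches stood on the higher side. On chromosome 7 from 108194987 to 148725754, 37 of 101 tested genes were higher and 8 lower (median 0.23), and on chromosome 18 from 47808713 to 77810651, 15 of 51 were higher and 0 lower (median 0.22), CDH19 among them. Both kept that side under CYC065, at medians of 0.20 and 0.15, but not on the S62A background, at 0.02 and 0.00. A stretch on chromosome 6 from 17600533 to 27101314 had a low median of -0.21, with 20 histone genes among its 47 and 6 genes lower and 3 higher. Other genes named here also lay in stretches with raised medians. MXI1 and PDCD4 lay on chromosome 10 from 105206543 to 121588659 (median 0.21). CDK6 and ASNS lay on chromosome 7 from 91321323 to 98992439 (median 0.22), and CALD1 in the longer stretch of that chromosome. All these stretches were chosen for their medians and carry no test.

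**Figure D5:**
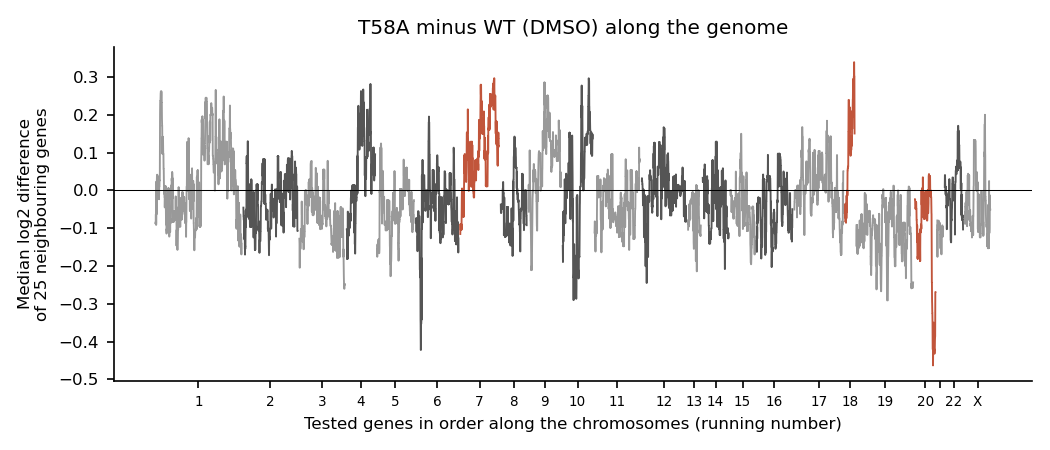
Median log2 difference, T58A minus WT in DMSO, over runs of 25 neighbouring tested genes in order along the chromosomes (x axis, running number of the gene, with chromosomes in alternating grey). Chromosomes 7, 18, and 20 are red. The end of chromosome 20 falls to -0.46 and the end of chromosome 18 reaches 0.34.

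E-box letters were counted last, since MYCN binds them. CACGTG was present in the RefSeq promoters of 13% of tested genes, 16.6% of genes higher in T58A, and 11.7% of genes lower, and in 7.26% of all promoters. Ribosome biogenesis genes, which leaned to the lower side, held it in 22 of 55 promoters (40%). Promoter sequences were present for 80% of tested genes, and a match says only that the letters are in this window.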

How the data were processed

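Expression values of 30 RNA-Seq libraries (10 groups of 3) were used, and the comparison rests on 6 of them. By the paper's methods and the submitters' processing notes, ERCC spike-ins entered the total RNA in proportion to cell number, and poly(A) RNA went into strand-specific libraries. Reads were aligned to hg19 with HISAT, and the authors computed FPKM with Cufflinks. The authors also derived values per cell number from the spike-ins, but the deposited FPKM are the unscaled ones. They cover 26228 genes and 92 spike-ins. FPKM divide by the total of the library, so a few abundant transcripts can shift all others, and they hold no read counts, so no count test was used and no counting error can be given. A value of 0 can be a failed estimate. The table's columns are numbered 0 to 2 and the labels 1 to 3, so libraries were treated as unnumbered replicates.

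Genes averaging 1 FPKM or more (11575) entered limma 3.58.1 (R 4.3.3). One linear model over the 10 groups, which share an estimate of the spread, was fitted to log2(FPKM + 0.1) by lmFit and moderated by eBayes with trend = TRUE. Contrasts were T58A minus WT in DMSO and in CYC065, the change between these, T58A S62A minus S62A in DMSO, and lines minus SH-EP. MYCN was also tested by exact permutation. Spike-in scaling shifted each library by the median log2 level of the 55 spike-ins that averaged 1 FPKM or more. The scripts were tested on simulated data. Positions come from a GENCODE annotation of GRCh37, and promoters from RefSeq (GRCh38.p14).

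The members and gene lists were chosen with earlier results of these data known. Genes named come from the MYC network and phosphodegron lists, the 15 largest rises and 15 largest falls past the threshold whose libraries do not overlap (without genes for small RNAs), the 3 largest changes past the threshold in each direction in every other list, the 5 largest in each direction shared by the 3 comparisons, and genes that the study names. Only some are printed. ATF4, ASNS, CEBPG, SLC1A5, NFKBIA, NFKB1, NFKB2, TIMP1, PLAT, NCL, NOP58, and PCNA were added after their values were seen. The alternatives tried were other pseudocounts (1 and 0.01), the filter removed or raised to 5 FPKM, spike-in scaling, median centring, a model of only the groups compared or of the 15 DMSO libraries, a minimum of 1.5-fold, and single libraries left out. The test between the backgrounds, the alternatives for shared calls, and the counts of lists with fewer libraries were added after seeing the data. The study's other assays were not used here, and some genes that the rule names are not reported here.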

Additional observations from a re-analysis of the deposited data

Results flagged for a closer look

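The results below stand out because the difference between T58A and WT cells changed with a second condition, by limma's test of that change, adjusted over all 11575 genes. Values are changes in log2 difference. No group was large enough for a test of single outlying libraries.

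With CYC065 in place of DMSO, the difference between the lines passed such a test for 24 of the genes named. Of all tested genes, 69 passed it when the model held only the groups compared. With spike-in scaling 5 passed, all higher, so none of the changes below that are more negative passed there. It became more negative for CHAC1 (-1.86), ASNS (-1.22), PSAT1 (-0.76), CARS (-0.68), GARS (-0.58), and CEBPG (-0.53), all from the ATF4 target and tRNA synthetase lists, and for VEGFA (-1.14), SNAI2 (-0.70), DDR2 (-0.66), HAND2 (-0.52), COL12A1 (-0.51), CDK6 (-0.44), HUWE1 (-0.43), PLAT (-0.35), and FN1 (-0.33). It became more positive for CLSPN (0.63), GDF15 (0.51), AURKA (0.43), RPS21 (0.43), GSK3A (0.41), RARS (0.39), PPP2CB (0.35), WDR46 (0.35), and PCNA (0.27). SNAI2 and GSK3A did not pass in DMSO itself.

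Between the S62A background (T58A S62A minus S62A) and the WT background (T58A minus WT), both in DMSO, the difference passed for 51 of the genes named. These values are on the deposited scale, and with spike-in scaling 7125 of all tested genes passed this test. MYCN was lower in T58A than in WT cells and higher in T58A S62A than in S62A cells (1.79). The differences of genes with large falls against WT were closer to 0 or positive on the S62A background, namely DENND3 (5.48), LGALS9 (3.83), CHI3L1 (3.31), ISLR (2.41), GPNMB (2.26), and HAPLN1 (2.06), whereas that of CGA was more negative (-4.66), with CGA listed at 0 FPKM in the T58A S62A libraries, so that its value depends on the pseudocount. HLA-B rose against WT and had a difference of 0.10 on the S62A background, which did not pass (change of -2.06, limma adjusted p = 0.0323).

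The differences of genes of the ATF4 target and tRNA synthetase lists that rose against WT were smaller or slightly negative there, with CHAC1 (-0.95), PSAT1 (-0.79), SESN2 (-0.76), CEBPG (-0.59), GARS (-0.51), ASNS (-0.50), and SLC1A5 (-0.24). RARS, which fell against WT, was closer to 0 (0.51). Ribosome genes that fell against WT were closer to 0 or positive, with RPS25 (0.99), RPS21 (0.76), FTSJ3 (0.75), WDR46 (0.65), RPS18 (0.39), NOP58 (0.37), and BRIX1 (0.36). Cell cycle and turnover genes that differed were PLK1 (0.70), PCNA (0.21), MKI67 (-0.29), AURKA (-0.35), CDKN1A (-0.36), CENPF (-0.38), HUWE1 (-0.66), and CDK6 (-0.81). Matrix and adhesion genes that differed were CDH19 (1.70), COL8A1 (1.15), TIMP3 (0.54), ITGA5 (0.44), COL12A1 (-0.27), PLAT (-0.39), CD44 (-0.48), LAMA2 (-0.65), FN1 (-0.89), and MMP16 (-1.65). The remaining ones were MAB21L2 (2.02), HAND2 (0.43), CALD1 (-0.34), PGD (-0.41), TGFA (-0.67), DDR2 (-0.87), VEGFA (-0.90), CXCL8 (-1.21), and PRRX1 (-1.39).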

How the results depend on the processing

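The lower calls between T58A and WT cells in DMSO depended most on the scale, and the higher calls on the minimum fold. With spike-in scaling 994 genes passed in DMSO, of which 53 were lower, against 9060 in CYC065 (9001 higher, 59 lower), 10502 on the S62A background (10452 higher, 50 lower), 5 for CYC065 minus DMSO (5 higher, 0 lower), and 7125 between the backgrounds. MYCN was then at -0.30 and did not pass, 933 calls were shared with CYC065, and 36 genes were higher than SH-EP in both S62A lines (6 higher and 2 lower in T58A than WT). The ATF4 list had 11 higher members. Counts of lower members were 0 for ribosome biogenesis, cytosolic and mitochondrial ribosomal proteins, respiratory chain, translation factors, chaperones, DNA replication, TGF-beta, and canonical MYC targets, and 1 each for matrix proteases and collagens. Of 103 named genes besides MYCN that passed, 35 no longer did and 5 changed sign, namely PPP2CA (0.09), NCL (0.10), PCNA (0.02), VIM (0.05), and CD44 (0.11). Spike-in scaling adds 1 offset per library to every gene; why the offsets differ was not tested.

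A fit of only the groups compared has fewer libraries for the spread. It gave 1532 genes in DMSO (672 higher, 860 lower), 2458 in CYC065 (1238 and 1220), 69 for the change (27 and 42), 2179 on the S62A background (1120 and 1059), 1439 between backgrounds, and 796 and 459 shared calls. Its list counts were 11 for ATF4 targets, 5 interferon-stimulated, 20 ribosome biogenesis, 3 cytosolic and 11 mitochondrial ribosomal, 9 translation, 9 chaperone, 5 mitosis, 4 collagen, 5 TGF-beta, and 1 canonical MYC. Asking for 1.5-fold left 544 genes (297 higher, 247 lower). With no filter, 178 genes became more positive in CYC065. The fit of only the groups compared ended 12 of the 103 calls of named genes, with their directions unchanged. For other settings, pseudocounts, median centring, and the 15 DMSO libraries ended 0 of the 103 calls. No filter ended 1, and leave-one-out ended 4, besides that of MYCN. No paired analysis was possible because the columns carry no replicate number of the labels.

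Leaving out 1 library of the groups compared gave 2199 to 2558 genes in DMSO (960 to 1126 higher, 1211 to 1432 lower), 3133 to 3653 in CYC065 (1593 to 1866 and 1540 to 1813), 2982 to 3755 on the S62A background (1510 to 1912 and 1461 to 1843), and 1724 to 2577 between backgrounds. CYC065 minus DMSO ranged from 189 without WT library 0 in DMSO to 1090 without WT library 2 in DMSO (75 to 589 and 114 to 501). Shared calls were 1319 to 1568 and 886 to 1117, and genes higher than SH-EP in both S62A lines 2383 to 2633 (322 to 389 and 377 to 439). MYCN was between -0.71 and -0.49, and did not pass at -0.49, without T58A library 0. Higher members were 14 to 16 for ATF4 targets, 5 to 7 for tRNA synthetases, 7 to 9 for NF-kB, 4 to 7 for interferon-stimulated genes (4 without WT library 1 or T58A library 0, 5 without WT library 0), 6 to 10 for mitosis (6 without T58A library 0 or 1), and 14 to 15 for collagens. Lower members were 30 to 33 for ribosome biogenesis, 11 to 25 for cytosolic and 11 to 20 for mitochondrial ribosomal proteins (both 11 without WT library 0), 17 to 26 for the respiratory chain, 11 to 14 for translation factors, 12 to 15 for chaperones, 11 to 15 for DNA replication, 10 to 11 for matrix proteases, 8 to 11 for collagens, 6 to 9 for TGF-beta, and 7 to 9 for canonical MYC targets. The cause of these shifts was not tested.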

Other observations

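Integrins and the contractile cytoskeleton also differed between the T58A and WT lines. Of 24 tested integrins, laminins, and cadherins, 9 were higher and 4 lower. The integrin subunit gene ITGB5 fell from 74.5, 64, and 62 FPKM to 46.6, 44.3, and 50.3 FPKM (log2 -0.50, limma adjusted p = 2.63e-06), and ITGA5, a subunit of the fibronectin receptor, fell by 0.39 while FN1 had risen. LAMA2, a laminin chain, rose by 0.74. Of 29 contractile actin genes, 5 were higher and 6 lower. Tropomyosin 1 (TPM1) fell from 435, 425, and 410 FPKM to 289, 308, and 289 FPKM (log2 -0.52, limma adjusted p = 3.67e-09), whereas caldesmon (CALD1) rose from 51.1, 51.4, and 54.1 FPKM to 78.1, 73, and 77 FPKM (log2 0.54, limma adjusted p = 7.77e-08).

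Of 33 tested p53 targets, 7 were higher and 6 lower, and the secreted GDF15 fell from 38.9, 30.7, and 29.2 FPKM to 18.2, 19.6, and 18.3 FPKM (log2 -0.80, limma adjusted p = 1.81e-06). Of 24 NRF2 targets, 4 were higher and 5 lower, with PGD, an enzyme of the pentose phosphate pathway, at 0.56 and heme oxygenase (HMOX1) at -0.67. Of 23 genes of cholesterol synthesis, 4 were higher and 4 lower, with IDI1, an isomerase of the mevalonate pathway, at -0.64. The falls of ITGB5, ITGA5, TPM1, GDF15, HMOX1, and IDI1 did not pass on the spike-in scale.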
